A study of Mus musculus with 28 samples.

Results

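The genes described here are 10 transcription factors that pattern cortical inhibitory interneurons, chosen by name: Dlx1, Dlx2, Dlx5, Dlx6, Lhx6, Sox6, Satb1, Maf, Nr2f2 and Prox1. They are 10 of the 23453 genes in the table of exonic counts and, without Maf, 9 of the 20422 genes in the table of intronic counts, both made by single-cell RNA sequencing of 28 mouse cortex cells. The sample labels describe 12 neurons and 8 astrocytes of genotype C57/BL6 from primary culture, picked by pipette, and 8 interneurons of genotype C57/BL6/N drawn by patch-clamp pipette from acute slices of prefrontal cortex. The study's methods describe its dispersed mouse cultures as grown from embryos of both sexes, while the labels' protocol gives for the cultured cells the perfused and fixed brain of a 3-month-old male mouse, and no age for the slice animals. The 2 sets also differed in library kit and sequencer. No genetic change or drug treatment is named, and no animal or culture is given for any cell.

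The tables name their columns by codes, 20 beginning with BRP and 8 beginning with F, and 0 of the 28 codes match a sample label. No cell below is therefore called an astrocyte, a neuron or an interneuron, the 28 cells count as 1 pooled sample, and no test was made between them. Exonic counts per cell ran from 12969692 to 26770944 in the BRP cells (median 19709706) and from 838343 to 14831505 in the F cells (median 4963188). The F cells had 1845 to 4372 genes at 1 or more CPM and the BRP cells 7581 to 10852. Levels are given as exonic counts scaled to 1000000 exonic counts of the cell (CPM), and a gene is called present at 1 or more CPM. A single count was worth 1.19 CPM in F16 and 0.0374 CPM in BRP537, so the same threshold asks for different numbers of counts in different cells.

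Cortical interneurons are born in the ventral forebrain and migrate into the cortex. Dlx1, Dlx2, Dlx5 and Dlx6 are homeobox genes of ventral progenitors and migrating GABAergic cells, and they lie in pairs, Dlx1 beside Dlx2 and Dlx5 beside Dlx6. Lhx6, Sox6, Satb1 and Maf act in the branch from the medial ganglionic eminence (MGE), which gives rise to parvalbumin and somatostatin cells. Nr2f2 (COUP-TFII) and Prox1 are marks of the branch from the caudal ganglionic eminence (CGE), which gives rise to cells with VIP or reelin. Several of these genes also work outside interneurons, such as Sox6 in oligodendrocyte precursors and Prox1 in dentate granule cells and lymphatic endothelium.

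Because the 4 Dlx genes are paralogs, a stretch of their homeobox coding sequence is printed here to show how far reads from one could be taken for another. The lines give 60 coding bases per gene, 5′ to 3′ on the coding strand, built from GENCODE M21 transcripts on GRCm38 and joined across the splice between exons 2 and 3. Capitals mark the 21 positions at which the 4 genes were not all alike.
Dlx1: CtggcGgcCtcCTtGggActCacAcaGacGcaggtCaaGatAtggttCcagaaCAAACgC
Dlx2: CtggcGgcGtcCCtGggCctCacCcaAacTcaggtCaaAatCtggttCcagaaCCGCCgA
Dlx5: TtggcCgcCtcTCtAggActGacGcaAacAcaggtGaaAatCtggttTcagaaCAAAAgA
Dlx6: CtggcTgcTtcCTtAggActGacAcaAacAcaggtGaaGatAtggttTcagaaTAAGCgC
The stretches span chr2:71531124-71532290 on the plus strand for Dlx1, chr2:71544898-71545416 on the minus strand for Dlx2, chr6:6878462-6879558 on the minus strand for Dlx5 and chr6:6865239-6867067 on the plus strand for Dlx6, introns included. Identity over the 60 bases was lowest between Dlx2 and Dlx6, at 71.7%, and highest between Dlx1 and Dlx6, at 83.3%. Over all 15 annotated transcripts of the 4 genes, the longest run shared by any pair of genes was 23 bases, between Dlx2 and Dlx6.

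In all, 9 of the 10 genes were present in at least 1 cell, where the share over all genes of the table was 66.9%, and 3 of the 10 were present in at least 14 cells, where the share over all genes was 34.8%. The median gene of the 10 was present in 9.50 cells and the median gene of the table in 5.00 cells. Satb1 was present in 27 cells, Maf in 18, Sox6 in 15, Dlx2 and Nr2f2 in 11 each, Dlx1 in 8, Lhx6 in 5, Dlx5 in 3, Prox1 in 1 and Dlx6 in 0. Neighbours in that order were not tested against each other, because the genes were scored in the same cells and the cells are 1 pooled sample. The 95% exact binomial intervals given below for shares of cells cover the counting of cells only, and the counts themselves are of amplified reads without molecular identifiers.

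**Figure D1:**
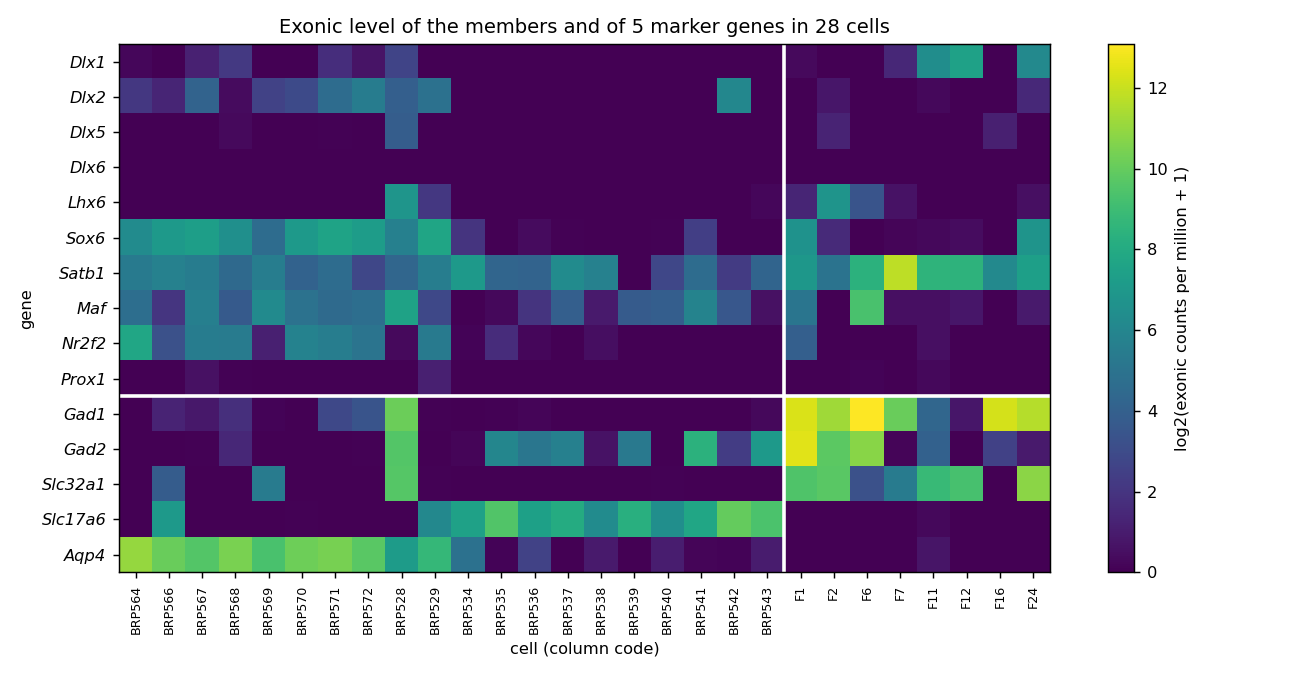
Exonic level, as log2(CPM + 1), of the 10 transcription factors (above the horizontal line) and of 5 marker genes (below it) in each of the 28 cells, with the BRP codes left of the vertical line and the F codes right of it. Among the 10, Satb1 was the brightest row across the F cells, and Dlx6 was at 0 throughout. The astrocyte marker Aqp4 was high in the 8 leftmost columns. In these, Sox6, Satb1, Maf and Nr2f2 were present in every cell and Dlx2 in 7.

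Dlx1 (chr2:71528113-71533981, plus strand) had its highest levels in 3 F cells: 178 CPM in F12, 85.9 in F11 and 70.9 in F24. The other cells in which it was present were BRP528 at 5.53, BRP568 at 3.58, BRP571 at 2.29, F7 at 1.73 and BRP567 at 1.30. It was at 0 in 17 cells. The 3 high cells are all among the 4 cells with fewer than 5000000 exonic counts, and they rest on 482, 377 and 150 counts. Without those 4 cells Dlx1 was present in 5 of 24. Slc32a1, which encodes the vesicular GABA transporter, was at 618 CPM in F12, 443 in F11 and 1813 in F24, while Gad1, which makes GABA from glutamate, was at 3151 in F24, 18.9 in F11 and under 1 in F12.

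Dlx2 (chr2:71543408-71546754, minus strand) lies next to Dlx1 but peaked in other cells. It was highest in BRP542 at 66.3 CPM, followed by BRP572 at 44.6, BRP529 at 29.0, BRP571 at 24.1, BRP567 at 16.7 and BRP528 at 14.5. Of the 11 cells in which it was present, 10 were BRP cells, and the highest F cell, F24, held 1.89 CPM. All 8 astrocyte markers (listed with Sox6 below) were present in 9 of the 11, against 1 of the 17 cells without Dlx2. Gad1 was at 10 or more CPM in 2 of the 11 and Slc32a1 in 4. BRP542 had the glutamatergic marker Slc17a6 at 1012 CPM, with Gad1 and Slc32a1 at 0. The part of the astrocyte level in the Dlx2 pattern was not tested. Dlx1 and Dlx2 were both present in only 4 cells, BRP528, BRP567, BRP571 and F24, out of 8 with Dlx1 and 11 with Dlx2. In the 2 cells with most Dlx1, F12 had no Dlx2 count and F11 had 1.

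Dlx5 (chr6:6877805-6882085, minus strand) was nearly a property of 1 cell. BRP528 held 268 of its 282 counts (95.0%), at 13.3 CPM. F2 was at 1.45, and F16 at 1.19 with a single count. Dlx6 (chr6:6863334-6868568, plus strand) had 0 counts among the 442129542 exonic counts of all cells, which allows up to 0.00679 CPM over all cells. It had 5 intronic counts, in BRP528, BRP536, BRP540 and F7. Its antisense neighbour Dlx6os1, a long noncoding RNA, is not listed in either table under that name. At least 1 Dlx gene was present in 17 of 28 cells (60.7%, interval 40.6% to 78.5%), 6 of the 8 F cells and 11 of the 20 BRP cells. Among these 11 BRP cells, BRP528, BRP529, BRP564 and BRP566 to BRP572 had all 8 astrocyte markers present. Without the 4 shallowest cells the count was 13 of 24.

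Dlx1as, annotated on the strand opposite to Dlx1, was listed as a gene of its own with 3948 exonic counts against 1278 for Dlx1. Of these, 2290 were in BRP528 (114 CPM) and 1642 in F7 (189 CPM). In both cells Dlx1 was low, at 5.53 and 1.73 CPM. In F12 and F11, the cells with most Dlx1, Dlx1as had 0 exonic counts but 24 and 26 intronic ones, the most of any cell, of 83 in all. Whether strand was used in counting is not stated, so reads where the annotations overlap cannot be assigned to one strand.

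**Figure D2:**
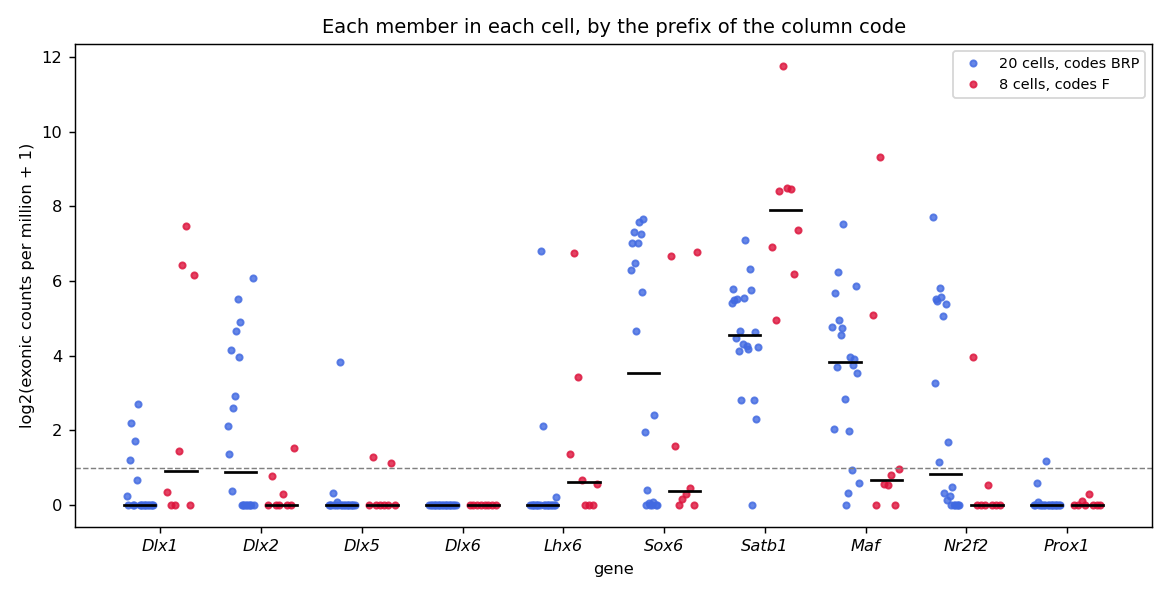
Level of each gene in each cell as log2(CPM + 1), BRP cells in blue and F cells in red, with a black bar at the median of each set and a dashed line at the threshold for present (1 CPM). The red median lies above the blue one for Satb1, at 253 against 22.5 CPM, and below it for Maf, at 0.600 against 13.2 CPM.

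Lhx6 (chr2:36081953-36105408, minus strand), a LIM-homeobox gene that specifies and guides MGE interneurons, was present in 5 cells. BRP528 held 111 CPM and 73.3% of all 3048 counts, and F2 was almost level with it at 107. F6 followed at 9.71, BRP529 at 3.31 and F1 at 1.55. Of these 5 cells, BRP528, F1 and F2 had Gad1, Gad2 and Slc32a1 all at 10 or more CPM, and F6 had 2 of the 3. The other, BRP529, had none of the 3 at that level and had all 6 glutamatergic markers present, with a summed level of 362 CPM.

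Sox6 (chr7:115470872-116038796, minus strand), an SRY-box factor needed for MGE cells to settle and mature, was present in 15 cells in 2 separate ranges. It stood at 24.1 to 203 CPM in 12 cells: BRP529 at 203, BRP571 at 191, BRP567 at 158, BRP572 at 152, BRP566 at 129, BRP570 at 128, F24 at 108, F1 at 101, BRP568 at 89.2, BRP564 at 77.4, BRP528 at 50.8 and BRP569 at 24.1. In the 3 remaining cells, BRP541, BRP534 and F2, it was at 4.32, 2.85 and 1.99. Of the 15 cells, 10 had all 8 astrocyte markers present (Aqp4, Gfap, Aldoc, Slc1a3, Slc1a2, S100b, Gja1 and Aldh1l1), and these are all 10 such cells in the table. Satb1 and Maf were also present in all 10, so this is not particular to Sox6. The summed astrocyte level was 194 to 6174 CPM (median 2123) in cells with Sox6 and 0 to 4352 (median 586) in the 13 without, ranges that overlap. The 4352 was in F7, with Slc1a2 alone at 4350 CPM, and BRP538 followed at 2463, with Slc1a2 at 2459. Aqp4 was at most 5.09 CPM in the 13 cells. It was also low, at 0.114 CPM or less, in BRP541, F1, F2 and F24, which had Sox6. Pdgfra, a receptor of oligodendrocyte precursors, was present in 11 cells, 10 of them with Sox6, and was highest in BRP529 at 257 CPM and BRP541 at 200. All 8 astrocyte markers were present in 9 of the 11 Pdgfra cells, and in 9 of the 10 with Sox6 as well. The 2 marker lists thus largely pick out the same cells. The summed level of the precursor markers Pdgfra and Cspg4 was 0 to 303 CPM (median 15.9) in cells with Sox6 and 0 to 7.91 (median 0.0374) in those without, ranges that overlap. The part of either marker list in the Sox6 pattern was not tested.

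Satb1 (chr17:51736187-51833290, minus strand), a chromatin organiser needed for the maturation of somatostatin cells, was the most widespread of the 10. It was present in all 8 F cells, at 3477 CPM in F7, 359 in F11, 353 in F12, 342 in F6, 165 in F24, 120 in F1, 71.6 in F16 and 30.2 in F2. The 20 BRP cells ran from 0 in BRP539 through a median of 22.5 to 136 in BRP534. F7 alone carried 57.5% of all 52565 counts. The 2 sets of codes overlapped, since 8 BRP cells lay above F2. The sets also differ in depth and number of genes detected, and these cannot be told apart from the code.

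Maf (chr8:115682942-115707794, minus strand), a basic leucine zipper factor of MGE cells, was present in 16 BRP cells and in F6 and F1. F6 had the highest level at 635 CPM and 42.0% of all counts, BRP528 followed at 184, BRP569 at 74.8, BRP541 at 57.2, BRP567 at 50.0 and F1 at 33.1. In the other 6 F cells it lay between 0 and 0.945 CPM. Of the 18 cells with Maf, 10 had all 8 astrocyte markers present, against 0 of the 10 cells without it. The part of the astrocyte level in the Maf pattern was not tested. Maf has no row in the intronic table.

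At least 1 of Lhx6, Sox6, Satb1 and Maf was present in 28 of 28 cells, a count that Satb1 carries by itself in 27. All 4 were present in BRP528, BRP529 and F1. BRP528 and BRP529 each held 7 of the 10 factors, BRP528 these 4 and 3 Dlx genes, and BRP529 these 4 with Dlx2, Nr2f2 and Prox1. Of all 23453 genes, 9017 were present in BRP528 and 9338 in BRP529. BRP528 also had Gad1 at 1136, Gad2 at 780, Slc32a1 at 798, Pvalb (parvalbumin, a calcium buffer of fast-spiking cells) at 279 and Npy (neuropeptide Y) at 337 CPM. The same cell had all 8 astrocyte markers present, with Aqp4 at 142 and Gfap at 115 CPM, and BRP529 had all 8 as well, with Aqp4 at 418 CPM, beside the 6 glutamatergic markers and both precursor markers. The columns of both cells thus hold markers of more than one cell type.

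Nr2f2 (chr7:70351944-70366735, minus strand), a nuclear receptor of CGE cells, was present in 11 cells, 10 of them BRP. BRP564 was far above the rest at 211 CPM with 38.7% of all counts. A run of 6 BRP cells followed, with BRP570 at 55.7, BRP571 at 46.6, BRP567 at 44.6, BRP568 at 43.0, BRP529 at 40.5 and BRP572 at 32.1. F1 was at 14.5, BRP566 at 8.66, BRP535 at 2.21 and BRP569 at 1.23. Of the 11 cells, 9 had all 8 astrocyte markers, against 1 of the 17 cells without Nr2f2. The summed astrocyte level was 290 to 6174 CPM in the former and 0 to 4352 in the latter. The 4352 was in F7, with Slc1a2 at 4350 CPM and Aqp4 at 0. The part of the astrocyte level in the result was not tested.

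Prox1 (chr1:190118035-190170714, minus strand), a homeobox factor that CGE cells keep after migration, reached the threshold in BRP529 alone, at 1.25 CPM with 28 of its 39 counts. Nr2f2 or Prox1 was present in 11 of 28 cells (39.3%, interval 21.5% to 59.4%), 10 of 20 BRP cells and 1 of 8 F cells. Vip, the peptide gene that names one CGE class, had 2 counts in all cells, and Htr3a, the serotonin receptor of CGE cells, was present in 1 cell. Reln, which encodes the secreted protein reelin, was at 10 or more CPM in 9 cells, 4 of them with Nr2f2 present. It was at 64.5 CPM in BRP529, which had both Nr2f2 and Prox1 present. Its highest level was 5081 CPM in F24, a cell with 0 exonic counts of Nr2f2 and Prox1 and 3 intronic counts of Prox1. F24 also had Sox6 at 108 CPM and Sst (somatostatin) at 56.7 CPM.

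**Figure D3:**
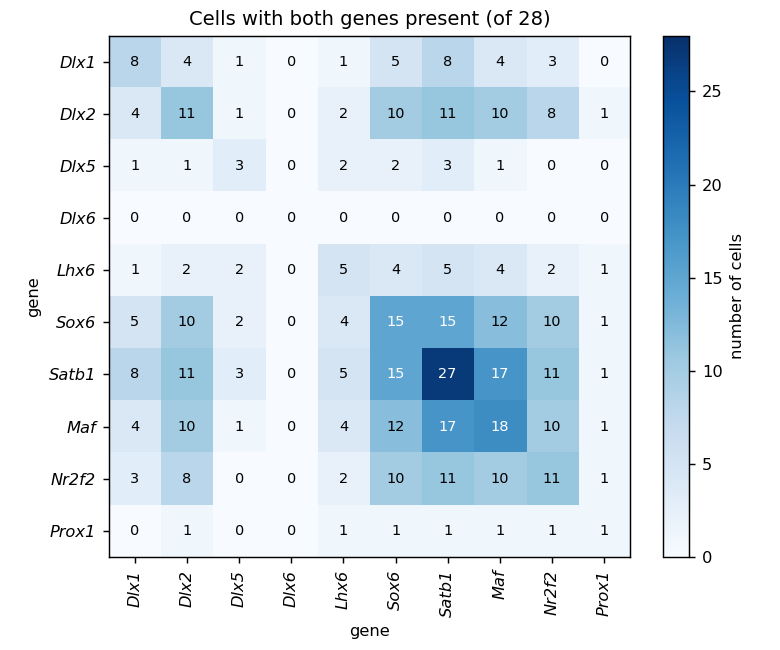
Number of the 28 cells in which both genes of a pair were present, with the number for each gene alone on the diagonal. Sox6 and Nr2f2 met in 10 cells, Dlx2 and Sox6 in 10, and Dlx1 and Dlx2 in 4.

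Sox6 of the MGE branch and Nr2f2 of the CGE branch were both present in 10 cells, which is 10 of 15 with Sox6 and 10 of 11 with Nr2f2. All 8 astrocyte markers were present in 9 of these 10 cells. Across the 28 cells their levels had a Spearman's rho of 0.69, and 0.76 within the 20 BRP cells, the highest of the 21 pairs of genes that were present in at least 5 cells. The BRP cells are themselves mixed. They include the cluster of 8 described below, in which both genes were present in every cell. In the cluster of 19, which holds the other BRP cells and most F cells, Sox6 was present in 6 and Nr2f2 in 3. No rho was taken within a cluster. Dlx2 went with Sox6 at a rho of 0.66 and with Nr2f2 at 0.55. Maf and Nr2f2 also met in 10 cells, with a rho of 0.32, and 0.25 within the BRP cells. Satb1 and Nr2f2 met in 11 cells with a rho of -0.13, and 0.22 within the BRP cells. Lhx6 and Nr2f2 met in 2 cells with a rho of -0.22. The neighbours Dlx1 and Dlx2 had a rho of 0.26. No p is attached to these values, since the cells differ in depth and are of unknown type.

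When cells were clustered on the 2000 most variable genes with the 10 factors left out, BRP564 and BRP566 to BRP572 formed a cluster of 8, F24 stood alone, and the other 19 cells made up the rest. All 8 astrocyte markers were present in each of the 8 cells, but the leading genes of the cluster (Nexn, Anxa3, Gm15698, Fn1, Lgals3, Ifit3, Irgm2, S100a6, Vcam1 and Acta2) hold none of them, so it was left unnamed. In these 8 cells Sox6, Satb1, Maf and Nr2f2 were present in every cell, Dlx2 in 7 and Dlx1 in 3. Sox6 lay at 24.1 to 191 CPM (median 128) and Nr2f2 at 1.23 to 211 (median 43.8). Lhx6 had 0 exonic counts in all 8, and Dlx5 stayed at or under 0.243 CPM. In the cluster of 19, Sox6 was present in 6 cells and Nr2f2 in 3.

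Intronic counts gave a different picture for some genes. Among 13110 genes with at least 1000 exonic and intronic counts together, the median intronic share was 10%. Sox6, whose introns span most of a very long gene, had 54348 intronic and 24142 exonic counts, an intronic share of 69.2% that 15.7% of those genes reached. All 28 cells held Sox6 intronic counts, and 6 cells with 0 exonic counts had at least 10. F6 was the extreme, with 8087 intronic and 0 exonic counts, and F2 was close to it with 5833 intronic and 11 exonic counts. Over all genes, 36.3% of the counts in F6 and 52.5% of those in F2 were intronic. That share ran from 5.31% to 63.0% in the F cells and from 5.67% to 38.8% in the BRP cells.

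Prox1 leaned further to introns, with 3237 intronic counts and 39 exonic ones, a share of 98.8% that 4.45% of genes reached. The counts lay in few cells: 1230 in BRP534, 1228 in BRP568, 373 in BRP528, 304 in BRP572, 57 in BRP542 and 22 in BRP543. In 5 of these 6 cells the exonic count was 0 and in BRP568 it was 1, while BRP529, the cell with most exonic counts, had no intronic count. Antisense genes are annotated over Prox1 and over Sox6 and have no row under those names in the exonic table, so without a known strand setting their reads cannot be told from intronic reads of the factors. Lhx6 had a much lower intronic share, 15.3%, that 43.2% of genes reached. Of its 549 intronic counts, 456 were in BRP529 (74 exonic counts) and 39 in BRP528 (2233 exonic counts). No intronic count of Lhx6 was listed in F2, against 592 exonic ones.

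Satb1 had an intronic share of 12.1% and Nr2f2 of 3.85%. Dlx1, Dlx2 and Dlx5 had 0 intronic counts in every cell, against 5 for Dlx6. Dlx1 sits in a run of 100 consecutive genes on the plus strand of chromosome 2 that are all listed at 0 in the intronic table, so nothing is read from its 0. Dlx2 and Dlx5 are short genes with 492 and 2018 bases of intron once all annotated exons are taken out, and neither lies in such a run.

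**Figure D4:**
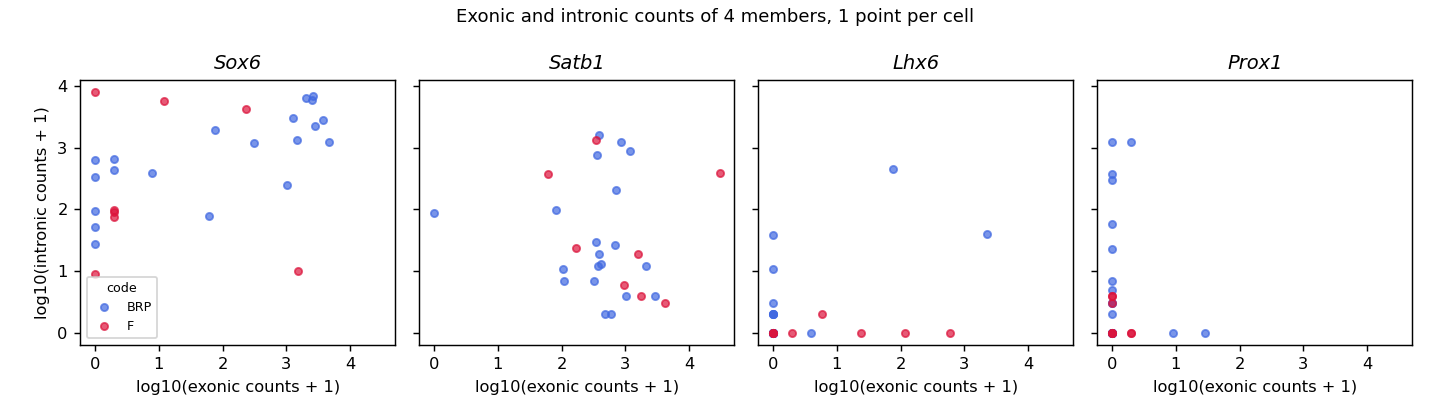
Exonic against intronic counts, as log10(count + 1), for Sox6, Satb1, Lhx6 and Prox1, 1 point per cell, BRP in blue and F in red. Points at 0 on the horizontal axis and above 0 on the vertical axis are cells with intronic counts only. Examples are F6 with 8087 intronic counts of Sox6 and BRP534 with 1230 of Prox1.

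Per kilobase of annotated exon, the highest single-cell levels were 183 CPM for Satb1, 77.0 for Maf, 33.0 for Dlx1, 24.5 for Nr2f2, 23.2 for Dlx2, 23.1 for Lhx6, 13.7 for Sox6, 5.90 for Dlx5 and 0.149 for Prox1. The order of the medians over 28 cells on the same scale was Satb1 at 2.25, Maf at 1.37 and Sox6 at 0.163, with the others under 0.1.

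Of 15 other regulators of interneuron development taken as a list, 14 are in the exonic table, 13 were present in at least 1 cell, 9 in at least 5 and 4 in at least 14, where the shares over all genes were 66.9%, 51.0% and 34.8%. Nr2f1, the paralog of Nr2f2, was present in all 20 BRP cells at 88.9 to 665 CPM and in 3 F cells. Zeb2, which acts in MGE cells after Dlx, was present in 25 cells with its maximum of 914 in F7, the cell with most Satb1. Etv1 was present in 16 cells and highest in F6 (713), the cell with most Maf. Zfhx3 was present in 12 cells, Npas1 in 7 and Tox in 5, and Npas1 was present in no F cell.

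For each factor present in at least 5 cells, the 3 genes most like it by Spearman's rho over 28 cells were taken from 11957 genes, and for Dlx1 the second and the third are given. Nr2f2 was closest to Emp2 (0.91), Slc18b1 (0.86) and Nfe2l2 (0.86), and Sox6 to Pxdc1 (0.88), Qk (0.82) and Cercam (0.80). Dlx2 was closest to 1110007C09Rik (0.84), Casq1 (0.83) and Uhrf1 (0.82), and Maf to Ppif (0.79), Tmem65 (0.78) and Pbx2 (0.77). For Dlx1 these were A730017C20Rik (0.63) and Dnm3 (0.63). Lhx6 was closest to Sema4g (0.74), Nap1l5 (0.73) and Epha10 (0.71), and Satb1 to 4930440C22Rik (0.63), Resp18 (0.59) and Cygb (0.56). Within the 20 BRP cells the values for Satb1 fell to 0.27, -0.18 and 0.19. With Pearson's r of log2 values, at most 1 of the 3 genes was shared for any factor, so the lists are descriptions of one measure of likeness.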

How the data were processed

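The authors deposited 2 tables of raw counts per gene and cell, 1 for exons and 1 for introns. The submitters' processing notes name bcl2fastq 2.17, STAR 2.4.0 and mm10 for the series. The counting tool, annotation and strand setting are not given in the sources used here. By the labels, the cultured cells were made with TruSeq Nano and run on a NextSeq 500, and the slice cells with TruSeq Stranded on a HiSeq 2500. All 28 columns were used and 0 were matched to a label, so no group comparison was made.

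Exonic counts were divided by the cell's exonic total and scaled to 1000000 (CPM), and a gene was present at 1 or more CPM. Shares have 95% exact binomial intervals, and a count of 0 allows 3. Gene positions and exon lengths are from GENCODE M21 on GRCm38, matched by symbol. Cells were clustered by average linkage on 1 minus Spearman's rho of log2(CPM + 1) into 3 clusters. The named genes are the 10 factors, the 3 genes most like each factor present in at least 5 cells, the listed regulators present in at least 5 cells, and GABA, subtype and cell type markers. Dlx1as was added after its values were seen. Some genes that this rule names are not reported here. The factors and lists were chosen with earlier results of these data known. The ranking by likeness was tested only on genes simulated to follow Sox6 with counting noise alone, which does not test the reported lists. Alternatives were other thresholds, scalings and likeness measures, added intronic counts, thinning to 800000 exonic counts, and other cluster settings. After seeing the data, 2 more were added: leaving out the 4 cells under 5000000 exonic counts, and asking for at least 3 counts. Scaling factors for the alternatives came from edgeR 4.0.16 and DESeq2 1.42.0 in R 4.3.3, and all else from scipy 1.17.1, pandas 2.3.3, numpy 2.4.6 and matplotlib 3.10.9 in Python 3.11.15.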

Additional observations from a re-analysis of the deposited data

How the results depend on the processing

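No paired analysis was possible because the replicate numbers of the labels are carried by no column of the tables. With at least 10 CPM, 9 cells rather than 17 had a Dlx gene, and with at least 1 count, 17 cells rather than 11 had Nr2f2 or Prox1; the cause is the thresholds themselves. The other 22 recomputed counts of cells per set lay within 1.5 times the reported ones. Adding intronic counts raised Sox6 from 15 to 27 cells and Prox1 from 1 to 6, and 10 or more CPM lowered Dlx1 to 3 cells and Dlx2 to 6. The cluster of 8 cells was recovered with 4 clusters and with 500 genes. With 2 clusters or 5000 genes it was not recovered, and only F24, or F7 and F24, stood apart from the rest. Depth limits the F cells most: 1 count of Dlx5 in F16 reaches the threshold.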
